A study of Mus musculus with 18 samples.

Results

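The heat shock and small chaperone genes described here are 10 genes of the 30583 in the deposited count table, taken by name: the HSP70 chaperones Hspa1a, Hspa1b and Hspa8, the HSP90 chaperone Hsp90aa1, the HSP70 co-chaperones Dnajb1, Hsph1 and Bag3, and the small heat shock proteins Hspb1, Hspb7 and Cryab. All 10 had enough counts to be tested. They were followed in the hearts of 18 male C57BL/6JR mice aged 12 weeks, 3 in each of 6 groups. Myocardial infarction (MI) was produced by tying the left anterior descending coronary artery, and tissue was taken early, at 10 min or 1 h, or later, at 6, 24 or 72 h. In the sham group (0 h) the suture was passed without being tied, so every mouse, sham included, had been anaesthetised and operated on. RNA came from the infarcted region of the left ventricle, 1 library per mouse. The labels give the cell type as cardiomyocytes but describe no separation of cells, and markers of other cell types were present in every group, so the libraries are read as whole tissue.

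Molecular chaperones bind unfolded stretches of other proteins and keep them from clumping while they fold, refold or are sent for degradation. HSP70 works in cycles of ATP binding and hydrolysis: J-domain proteins such as Dnajb1 deliver the client and trigger hydrolysis, and nucleotide exchange factors such as Hsph1 and Bag3 reset the cycle. Small heat shock proteins hold clients without ATP until HSP70 takes them over, and striated muscle keeps large stores of them around its contractile filaments. Heat, oxidation and loss of ATP activate the transcription factor HSF1, which binds heat shock elements, repeats of the unit nGAAn in alternating orientation, in front of chaperone genes.

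Of the 10 genes, 7 had a promoter window in the RefSeq table (GRCm38.p6); Hspa8, Hsp90aa1 and Cryab were not matched. The 250 bases before the transcription start are shown for 4 genes: the pair Hspa1a and Hspa1b, which changed most and peaked at 6 h, Hspb1, which was high at 6 and 24 h, and Hspb7, which was high at 6 and 24 h and low at 72 h. Capitals mark each match to GAANNTTC, a pair of facing heat shock units; the motif reads the same on both strands. The windows lie at chr17:34972157-34972406 (minus strand, Hspa1a), chr17:34959239-34959488 (minus strand, Hspa1b), chr5:135887669-135887918 (plus strand, Hspb1) and chr4:141420529-141420778 (plus strand, Hspb7), and each is printed 5′ to 3′ along its gene.
Hspa1a: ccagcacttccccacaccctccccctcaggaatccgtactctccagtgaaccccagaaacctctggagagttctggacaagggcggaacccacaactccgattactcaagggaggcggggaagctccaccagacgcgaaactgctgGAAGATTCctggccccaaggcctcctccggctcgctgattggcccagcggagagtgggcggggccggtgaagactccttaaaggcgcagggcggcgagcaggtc
Hspa1b: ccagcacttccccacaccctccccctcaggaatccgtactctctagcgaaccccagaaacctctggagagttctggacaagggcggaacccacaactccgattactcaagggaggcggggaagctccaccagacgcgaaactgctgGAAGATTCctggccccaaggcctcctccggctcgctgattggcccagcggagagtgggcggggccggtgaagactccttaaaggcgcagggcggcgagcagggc
Hspb1: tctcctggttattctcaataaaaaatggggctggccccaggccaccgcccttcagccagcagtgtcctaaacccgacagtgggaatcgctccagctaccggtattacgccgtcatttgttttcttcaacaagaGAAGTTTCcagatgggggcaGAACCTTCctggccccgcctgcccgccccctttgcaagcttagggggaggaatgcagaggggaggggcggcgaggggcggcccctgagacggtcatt
Hspb7: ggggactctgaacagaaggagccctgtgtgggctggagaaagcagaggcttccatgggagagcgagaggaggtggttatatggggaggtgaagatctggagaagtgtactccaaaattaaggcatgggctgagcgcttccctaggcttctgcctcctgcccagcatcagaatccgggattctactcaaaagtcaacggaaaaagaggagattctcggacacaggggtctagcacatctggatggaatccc
Hspa1a and Hspa1b each held GAAGATTC at positions -104 to -97 from the start, and their windows were identical at 98.8% of bases (3 mismatches in 250). Hspb1 held GAAGTTTC at -117 to -110 and GAACCTTC at -97 to -90. The Hspb7 window held no match to GAANNTTC, nor to TTCNNGAA, the other order of the same units. Among all 32851 windows of the table, 6.69% held GAANNTTC and 7.17% TTCNNGAA in these 250 bases, and 12.8% held either of them or the longer run of 3 alternating units, which contains them. Of the members not printed, Hsph1 held TTCTCGAA before its start and the run TTCTGGAAAGTTC after it, Bag3 held GAAGTTTC after its start, and Dnajb1 held none. The run of 3 units was found before the start in 0.466% of windows, and in 0.603% when the 50 bases after the start were included. With those bases, 7.86% of windows held GAANNTTC and 8.52% held TTCNNGAA. A match is a description of the letters and does not show that a factor binds there.

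Per length, the small heat shock proteins and Hspa8 were the abundant members in the sham heart, and the inducible HSP70 genes were the scarce ones. Levels are given here as FPKM (counts divided by gene length in kilobases and by the library's counts in M, for mega). In sham, Hspb7 stood at 671 ± 15.8 FPKM (SD, n = 3), Cryab at 603 ± 39.4, Hspb1 at 251 ± 22.5 and Hspa8 at 203 ± 16.6. Hspa1b at 1.21 ± 0.543 and Hspa1a at 0.955 ± 0.155 FPKM came last, below Dnajb1 at 6.51 ± 1.31 and Hsph1 at 5.93 ± 0.806. The order changed after ligation: at 6 h Hspb1 led with 1148 ± 459 FPKM, although its SD reached across the levels of Hspb7 (920 ± 147) and Cryab (859 ± 138). At 24 h the first 3 places again belonged to small heat shock proteins, at 1390 ± 265 FPKM for Hspb1, 1272 ± 240 for Cryab and 1189 ± 178 for Hspb7, which did not differ beyond their spread. At 72 h Hspb7 (462 ± 5.04) and Cryab (444 ± 26.2) were again the highest and Hspa1a (1.89 ± 0.329) the lowest, and Hsp90aa1 (85.6 ± 15.5) had passed Bag3 (44.5 ± 4.66). Summed over the 10 genes, the level per length was 1834 ± 58.8 FPKM in sham, 3517 ± 858 at 6 h, 4292 ± 520 at 24 h and 1666 ± 28.2 at 72 h. Hspa1a and Hspa1b together made up 0.118% ± 0.0348 of that sum in sham and 3.65% ± 2.08 at 6 h. FPKM scale libraries by their totals alone, and the tests below use another scaling. In those tests Hspb7 at 72 h was at 0.459 of its sham level, while its FPKM were 462 against 671. FPKM and their sums in different groups are thus relative to library totals.

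**Figure D1:**
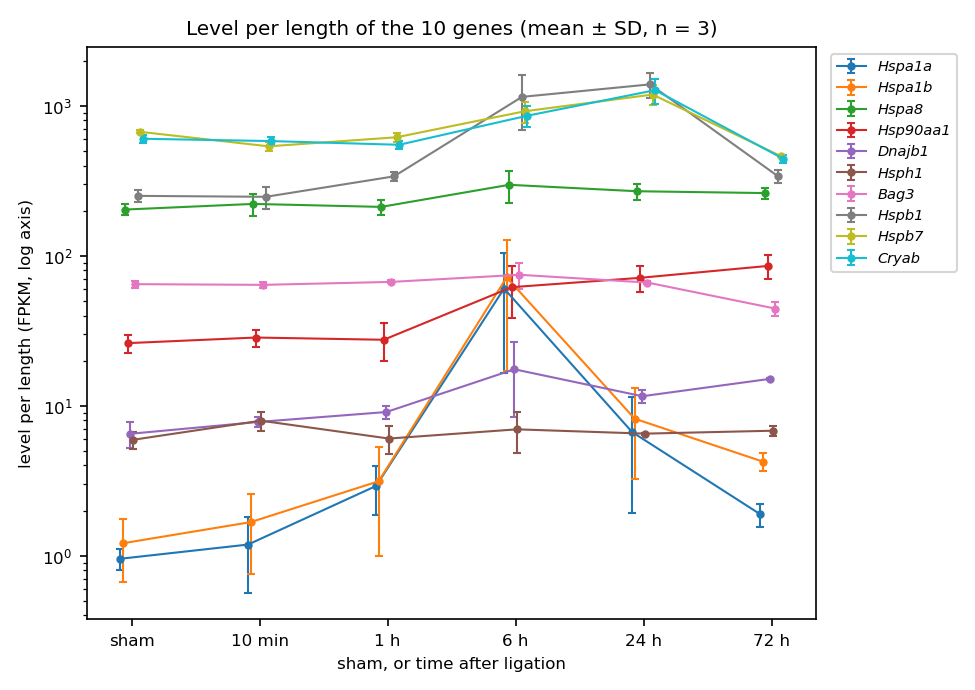
Level per length (FPKM, log axis) of the 10 genes in sham and at each time after ligation; points are means of 3 mice and bars the SD. Hspa1a and Hspa1b lie near 1 FPKM in sham and at 60.5 and 71.8 FPKM at 6 h, while Hspb7, Cryab, Hspb1 and Hspa8 keep the first 4 places in every group.

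Changes over time were tested with edgeR on the counts, and levels of single genes below are TMM-scaled CPM, counts per M counts after scaling libraries to each other by the trimmed mean of M-values. A gene was called at an edgeR adjusted p under 0.05 (Benjamini-Hochberg, over all 16311 genes tested). In brackets, log2 followed by a value stands for a log2 fold change, given with its standard error (SE). At 10 min and at 1 h 0 of the 10 members were called against sham, and DESeq2 also called 0. By the same edgeR test 1 member had an unadjusted p under 0.05 at each of these times. Of all 16311 genes, 1144 had such a p at 10 min and 899 at 1 h. Of all genes tested, edgeR called 0.0736% at 10 min and 0.294% at 1 h, and DESeq2 0.416% and 0.583%. A fit of only the 6 libraries compared called 1 member at 10 min (Hspb7, lower), against 2.48% of all genes in that fit, and 2 at 1 h (Hspa1a and Hspb1, higher), against 1.31%. At 6 h, 8 members were called higher and 0 lower, against 16.3% of all genes called higher. At 24 h, 6 were called higher and 0 lower, against 23.7% of all genes called higher. At 72 h, 2 were called higher and 3 lower, or 5 of 10 called, against 66.4% of all genes tested (34.2% higher, 32.2% lower), so the members' share called at 72 h was not above the background. The median log2 fold change of the members against sham was 0.12 at 10 min, 0.10 at 1 h, 1.02 at 6 h, 0.76 at 24 h and -0.19 at 72 h, beside medians of all genes between -0.01 and 0.03. When libraries were scaled by their totals, the all-gene medians became -0.12 (6 h), 0.20 (24 h) and 0.61 (72 h), and the members called became 8 higher at 6 h (against 11.7% of all genes), 8 higher at 24 h (34.1%), and 4 higher and 3 lower at 72 h (58.1% and 14.6%). Over all genes the share of calls that were higher went from 57.2% to 40.6% at 6 h, from 54.0% to 75.5% at 24 h and from 51.4% to 79.9% at 72 h. Directions below are relative to TMM scaling. These comparisons share the 3 sham libraries.

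**Figure D2:**
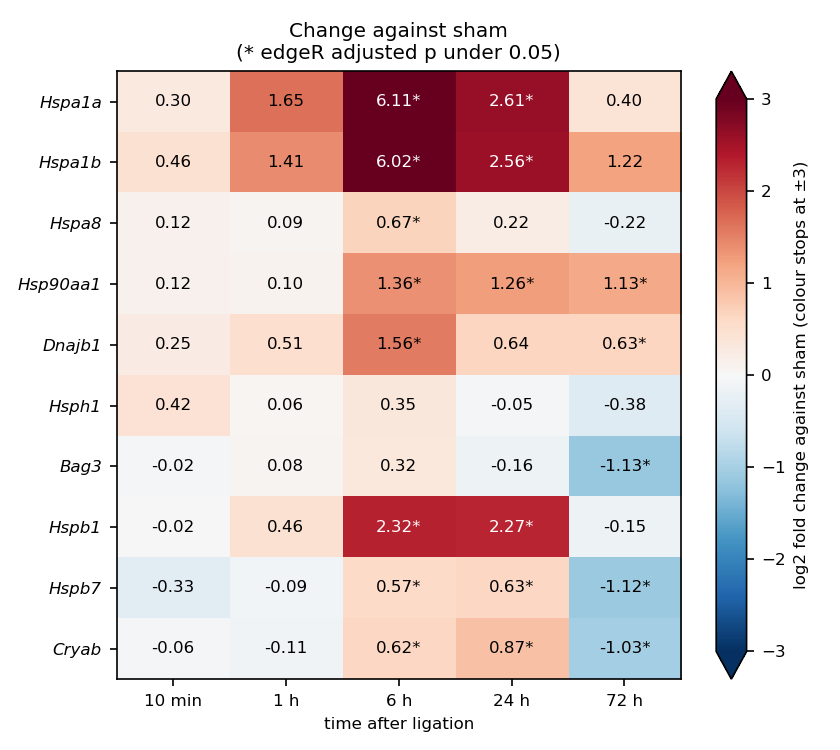
Log2 fold change against sham from the edgeR fit for the 10 genes (rows) at 5 times (columns), written in each cell; a star marks an edgeR adjusted p under 0.05 and the colour scale stops at 3 in each direction. Stars fall on 8 genes at 6 h, 6 at 24 h and 5 at 72 h, of which Bag3, Hspb7 and Cryab are lower.

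The inducible HSP70 genes changed most. Hspa1a and Hspa1b are single-exon genes that lie 9951 bases apart on the minus strand of chromosome 17 (34969190 to 34972156 and 34956436 to 34959238), and both encode the stress-inducible HSP70. Their coding sequences were identical at 99.4% of aligned bases (8 mismatches, 3 gap bases), and 47.1% of the 100-base stretches of the Hspa1a transcript occur unchanged in Hspa1b. Their separate counts are therefore uncertain, and their sum is given first. The summed level was 5.46, 5.76 and 8.84 CPM in the 3 sham mice, 14.7, 7.81 and 4.41 at 10 min, and 30.0, 10.8 and 16.7 at 1 h. It was 853, 306 and 193 CPM at 6 h, 34.0, 18.1 and 70.0 at 24 h, and 12.6, 12.4 and 12.8 at 72 h. Every 6 h mouse lay above every mouse of the other groups, and the 72 h mice lay close together, above all 3 sham mice.

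The sum was 67.0-fold higher at 6 h than in sham (log2 6.07, SE 0.74, edgeR adjusted p = 8.89e-05). It was 6.03-fold higher at 24 h (2.59, SE 0.66, edgeR adjusted p = 0.00685) and did not pass the test at 1 h (1.52, SE 0.66, edgeR adjusted p = 0.852) or at 72 h (0.91, SE 0.66, edgeR adjusted p = 0.242). Between 1 and 6 h the sum rose by 4.54 on the log2 scale (SE 0.68, edgeR adjusted p = 5e-04), between 6 and 24 h it fell by 3.47 (SE 0.64, edgeR adjusted p = 0.00175), and between 24 and 72 h it fell by 1.68 (SE 0.62, edgeR adjusted p = 0.0364). The peak stood at 6 h among the times sampled. The last of these falls did not pass the test with no filter on low counts (edgeR adjusted p = 0.0767), with scaling by library total (0.0905), without replicate 1 or 3 at 24 h (0.0585 and 0.191), or without any 1 of the 72 h mice (edgeR adjusted p from 0.0871 to 0.088), and the fall from 6 to 24 h did not pass when only those 6 libraries were fitted (0.0626). The 72 h comparison with sham passed when only its 6 libraries were fitted (edgeR adjusted p = 0.000147).

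Counted separately, both genes gave the same course. Hspa1a measured 2.63, 3.06 and 3.46 CPM in sham and 398, 141 and 97.9 CPM at 6 h (log2 6.11, SE 0.71, edgeR adjusted p = 6.23e-05). Hspa1b measured 2.83, 2.70 and 5.37 CPM in sham and 454, 165 and 94.9 CPM at 6 h (6.02, SE 0.77, edgeR adjusted p = 0.000131). At 24 h the log2 fold changes were 2.61 (edgeR adjusted p = 0.00691) and 2.56 (edgeR adjusted p = 0.0115), and both calls were lost without replicate 3 at 24 h, the highest library of that group (1.90 with edgeR adjusted p = 0.0503 for Hspa1a, 1.98 with 0.0693 for Hspa1b). At 72 h Hspa1b was not called against sham (edgeR adjusted p = 0.157), but passed in 4 of 9 other settings: scaling by library total, the 6 libraries alone and both limma fits. The limma fits used FPKM and so share the scaling by library total. With that scaling edgeR called 58.1% of all genes higher at 72 h. Hspa1a took 39.2% to 53.2% of the summed counts in sham, 46.0% to 50.8% at 6 h and 26.4% to 39.3% at 72 h, a drift in the split that was not tested. From lowest to highest, the Hspa1a groups were ordered sham, 10 min, 72 h, 1 h, 24 h and 6 h, and only the last step, from 24 h to 6 h, passed the test between neighbours.

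In 4 of the 6 groups, mice with more Hspa1a and Hspa1b were the mice with more neutrophil marker RNA. The 7 neutrophil markers summed to 3.03, 4.62 and 3.07 CPM in sham, 21.9, 8.23 and 5.75 at 10 min, and 24.7, 15.2 and 18.3 at 1 h. They summed to 772, 277 and 107 CPM at 6 h, 177, 44.0 and 755 at 24 h, and 65.5, 80.5 and 79.3 at 72 h, and each of the 7 was detected in every group. The order of the 3 mice by the markers was the order by summed Hspa1a and Hspa1b at 10 min, 1 h, 6 h and 24 h, and not in sham or at 72 h. Such a match was not particular to neutrophil markers. Summed macrophage markers (280, 259 and 186 CPM at 6 h) gave the Hspa1a and Hspa1b order in sham and at 1, 6 and 72 h. They did not at 10 min or 24 h. All 7 neutrophil markers were called higher at 6 h and at 24 h, and 6 at 72 h. The part of neutrophils in the HSP70 levels was not tested. In whole tissue, more cells of a type and more RNA per cell cannot be told apart, nor can fewer cells and less RNA.

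**Figure D3:**
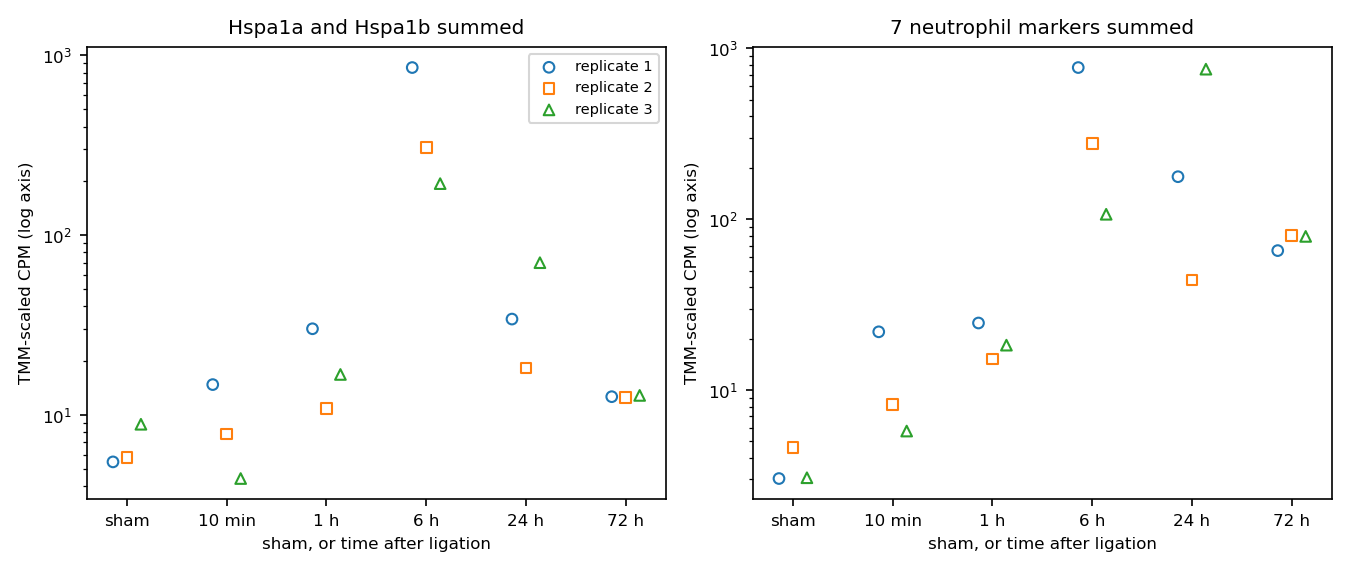
Summed TMM-scaled CPM (log axes) of Hspa1a and Hspa1b (left) and of 7 neutrophil markers (right), 1 point per mouse with the replicate number as symbol. At 6 h replicate 1 is highest in both panels (853 and 772 CPM) and replicate 3 lowest (193 and 107), and at 24 h replicate 3 is highest in both (70.0 and 755).

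Hspa8, the constitutive HSP70 that serves folding and clathrin uncoating in unstressed cells, moved far less. It measured 944, 893 and 993 CPM in sham and 1971, 1168 and 1357 CPM at 6 h. All 6 h mice were above all sham mice, 1.59-fold on average (log2 0.67, SE 0.18, edgeR adjusted p = 0.00842), but the call was lost without replicate 1 at 6 h (0.42, edgeR adjusted p = 0.0798). At 24 h it was 1095 ± 150 CPM (log2 0.22, edgeR adjusted p = 0.332, and 0.0406 with scaling by library total) and at 72 h 809 ± 49.0 (-0.22, edgeR adjusted p = 0.273). Scaling by library total gave 0.37 at 72 h instead, with an edgeR adjusted p of 0.0419, so the direction at 72 h rests on the scaling.

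Hsp90aa1, the stress-inducible cytosolic HSP90, which matures kinases and steroid receptors, rose and stayed high. It measured 107, 102 and 124 CPM in sham, 423, 215 and 217 at 6 h, 247, 222 and 325 at 24 h, and 208, 290 and 227 at 72 h. Every mouse from 6 h on lay above every sham mouse. The change against sham was 2.57-fold at 6 h (log2 1.36, SE 0.26, edgeR adjusted p = 0.00139), 2.39-fold at 24 h (1.26, SE 0.26, edgeR adjusted p = 0.00135) and 2.18-fold at 72 h (1.13, SE 0.26, edgeR adjusted p = 0.00128). Neighbouring times from 6 h on did not pass the test against each other (edgeR adjusted p = 0.788 for 24 against 6 h and 0.703 for 72 against 24 h). It was the only one of the 10 members not called lower at 72 h than at 6 h, a comparison in which 9 were called lower against 31.6% of all genes.

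The co-chaperones of HSP70 followed different courses. Dnajb1, the main J-domain partner of inducible HSP70, measured 20.1, 20.4 and 26.8 CPM in sham and 109, 44.2 and 45.6 at 6 h. All 6 h mice were above sham, and replicate 1 stood well above the other two (log2 1.56, SE 0.26, edgeR adjusted p = 0.000495). At 24 h it was 33.7, 33.3 and 38.1 CPM (0.64, SE 0.26, edgeR adjusted p = 0.0542) and at 72 h 35.2, 35.2 and 34.2 (0.63, SE 0.25, edgeR adjusted p = 0.0381). Both groups lay above sham by almost the same amount and on opposite sides of the threshold, and the 72 h call was lost in 6 of 18 fits that left out 1 library (edgeR adjusted p from 0.0539 to 0.116 in those 6): without sham replicate 1 or 2, 24 h replicate 3, or any 1 of the 72 h mice. It was also lost with no filter on low counts (edgeR adjusted p = 0.0879). The 24 h comparison passed in 6 of 10 other settings: scaling by library total, at least 10 counts in every library, the 6 libraries alone, DESeq2 and both limma fits. The limma fits share the scaling by library total. The 24 h comparison passed as well in 4 of 18 fits that left out 1 library, without sham replicate 3 or any 1 of the 6 h mice (adjusted p from 0.00016 to 0.0464 over these 10 fits).

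Hsph1, the HSP110 exchange factor for HSP70, was called against sham at no time in the fit of all 18 libraries, although it differed over the 6 groups (F test, edgeR adjusted p = 0.0169). It measured 49.5, 40.2 and 49.6 CPM in sham, 73.9, 62.6 and 50.3 at 10 min, 71.0, 68.5 and 37.5 at 6 h, and 33.6, 38.0 and 35.3 at 72 h. All 10 min mice lay above the sham mice (0.42, SE 0.20, edgeR adjusted p = 0.713), and the 6 h mice were split, with replicate 3 below every sham mouse. Against sham at 72 h its log2 fold change was -0.38 with TMM and 0.20 with scaling by library total, and neither passed the test. It did pass at 72 h when only the 6 libraries compared were fitted (-0.38, edgeR adjusted p = 0.00189) and without replicate 3 at 6 h (-0.39, edgeR adjusted p = 0.0216), and leaving out that library also made the 6 h rise pass (0.59, edgeR adjusted p = 0.0103). Between 6 and 72 h it fell by 0.73 (SE 0.20, edgeR adjusted p = 0.0045).

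Bag3, which links HSP70 to small heat shock proteins and to selective autophagy of damaged filament proteins, was not called against sham until 72 h. From 6 to 24 h it was called lower (log2 -0.48, SE 0.13, edgeR adjusted p = 0.0104), and at 72 h it was below sham. It measured 189, 171 and 177 CPM in sham, 275, 171 and 226 at 6 h, 172, 153 and 156 at 24 h, and 89.8, 72.3 and 83.6 at 72 h. The 6 h group overlapped sham (log2 0.32, SE 0.13, edgeR adjusted p = 0.0699), and this call depended on the fit, passing without replicate 2 at 6 h (0.48, edgeR adjusted p = 0.0041) and with the replicate block (0.0424). All 72 h mice lay below all others, at 0.458 of the sham level (log2 -1.13, SE 0.13, edgeR adjusted p = 5.25e-07). Its annotated span overlaps 2610306O10Rik by 612 bases on the same strand, and reads there could be split between them.

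**Figure D4:**
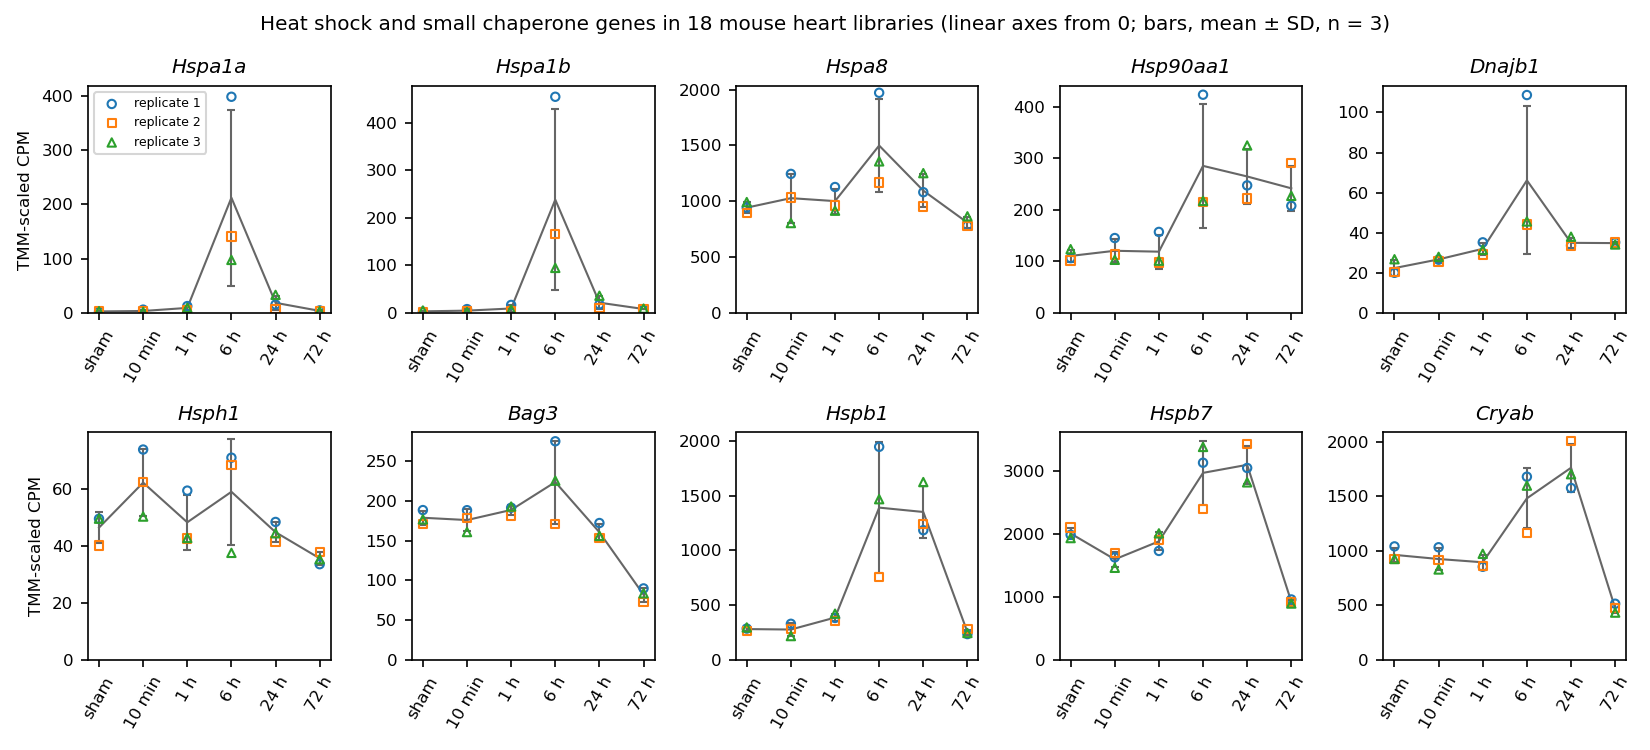
TMM-scaled CPM of each gene in every mouse (symbols give the replicate number), with the group mean joined by a line and the SD as bars; each panel has its own axis from 0. Hspa1a and Hspa1b stand out at 6 h, Hsp90aa1 stays near 2-fold above sham through 72 h, and Bag3, Hspb7 and Cryab end below sham.

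The 3 small heat shock proteins rose together at 6 and 24 h and parted at 72 h. Hspb1 (HSP25 in mice), which guards actin filaments, measured 284, 259 and 294 CPM in sham, 381, 352 and 420 at 1 h, 1946, 757 and 1467 at 6 h, 1183, 1243 and 1624 at 24 h, and 233, 277 and 243 at 72 h. The 1 h mice already lay above sham but did not pass the test (log2 0.46, SE 0.24, edgeR adjusted p = 0.934). The change was 4.98-fold at 6 h (2.32, SE 0.25, edgeR adjusted p = 1.18e-05) and 4.84-fold at 24 h (2.27, SE 0.25, edgeR adjusted p = 6.51e-06), and the 6 h and 24 h groups did not differ by the test (-0.04, SE 0.24, edgeR adjusted p = 0.915). Between 24 and 72 h it fell by 2.43 (SE 0.25, edgeR adjusted p = 8.37e-07), back among the sham values (-0.15, SE 0.24, edgeR adjusted p = 0.594). Scaling by library total gave 0.43 for the 72 h comparison with sham (edgeR adjusted p = 0.0955), so its direction rests on the scaling. The mean of Hspb1 was 1390 CPM at 6 h and 1350 at 24 h, an interval over which summed Hspa1a and Hspa1b fell by 3.47.

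Hspb7, a small heat shock protein of heart and skeletal muscle that binds filamin C, measured 1984, 2099 and 1932 CPM in sham and 1625, 1696 and 1459 at 10 min, all lower than sham but not called (-0.33, SE 0.13, edgeR adjusted p = 0.565). It measured 3130, 2395 and 3381 CPM at 6 h and 3046, 3425 and 2818 at 24 h, above every sham mouse at both times. It rose by 0.57 at 6 h (SE 0.13, edgeR adjusted p = 0.00275) and by 0.63 at 24 h (SE 0.13, edgeR adjusted p = 0.000721). At 72 h it measured 956, 916 and 891 CPM, below every mouse of the other groups, and the log2 fold change against sham was -1.12 (SE 0.13, edgeR adjusted p = 3.59e-07).

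Cryab, or alpha-B-crystallin, which protects desmin and the Z-disc, gave much the same figures. It measured 1041, 923 and 925 CPM in sham, 1682, 1167 and 1600 at 6 h, 1578, 2010 and 1705 at 24 h, and 514, 473 and 432 at 72 h. The groups at 6 and 24 h lay wholly above sham and the 72 h group wholly below. Log2 fold changes were 0.62 at 6 h (SE 0.14, edgeR adjusted p = 0.00275), 0.87 at 24 h (SE 0.14, edgeR adjusted p = 0.000104) and -1.03 at 72 h (SE 0.14, edgeR adjusted p = 3.34e-06). Cryab shares 1030 bases with Hspb2, which lies on the opposite strand, and no source used here states whether the counting used strand, so reads in that stretch cannot be assigned with certainty. Over the 18 libraries, Pearson's r of log2 CPM was 0.97 between Hspb7 and Cryab and 0.98 between Hspa1a and Hspa1b; the lowest value between any 2 members was -0.20, between Hsp90aa1 and Bag3. These values describe libraries that share the group means and the scaling, and no test was made.

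Cardiomyocyte markers also fell at 24 and 72 h. The 12 markers summed to 77322 to 83147 CPM in sham, 68076 to 82761 at 6 h, 36628 to 53786 at 24 h and 20081 to 26975 at 72 h. At 24 h 8 were called lower and 2 higher (median log2 fold change -0.73), and at 72 h 11 were called lower and 1, Nppa, higher (median -1.80). At 24 h Hspb1, Hspb7 and Cryab thus rose while most cardiomyocyte markers fell, and at 72 h the log2 fold changes of Bag3, Hspb7 and Cryab, from -1.13 to -1.03, were smaller in size than the marker median. Macrophage markers (7 genes) went from 200 to 231 CPM in sham to 3128 to 4068 at 72 h, and fibroblast markers (6 genes) from 686 to 736 to 7973 to 10233. The part of cell composition in these changes was not tested.

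**Figure D5:**
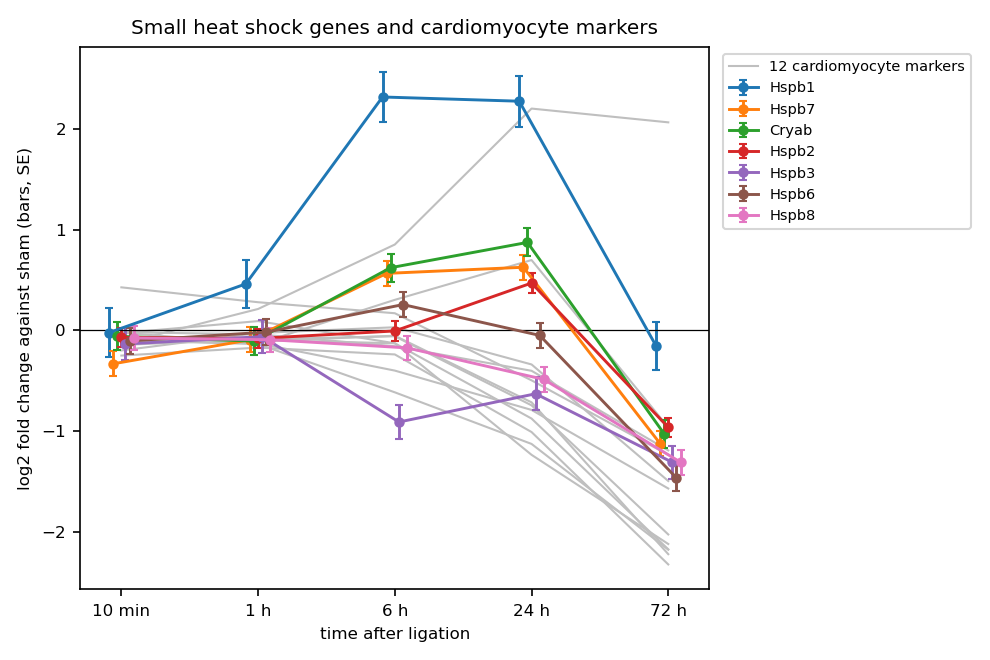
Log2 fold change against sham (edgeR fit, bars SE) of 7 small heat shock genes and, in grey, of 12 cardiomyocyte markers at each time after ligation. Hspb1, Hspb7 and Cryab lie above 0 at 6 and 24 h, and at 72 h all but Hspb1 lie near or below -1 with the markers, from which Nppa stands apart at 2.06.

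Between consecutive times, 0 members were called from 10 min to 1 h, against 0.307% of all genes. By the same edgeR test 0 had an unadjusted p under 0.05, against 1212 of all 16311 genes. DESeq2 called 0 in that interval, against 0.851% of all genes. From 1 to 6 h, 8 were called higher, against 14.5% of all genes: Hspa1a, Hspa1b, Hspa8, Hsp90aa1, Dnajb1, Hspb1, Hspb7 and Cryab. From 6 to 24 h, 4 were called lower, against 13.7%: Hspa1a, Hspa1b, Dnajb1 (-0.92, SE 0.25, edgeR adjusted p = 0.0137) and Bag3 (-0.48, SE 0.13, edgeR adjusted p = 0.0104). From 24 to 72 h, 6 were called lower, against 26.1%: Hspa1a, Hspa8, Bag3, Hspb1, Hspb7 and Cryab. Hspb1, Hspb7 and Cryab were among the members called lower in the second of these intervals and not in the first. Fitting only the 6 libraries compared called 5 members from 1 to 6 h, against 22.4% of all genes in that fit, and 0 from 6 to 24 h, against 6.91% (4 had an unadjusted p under 0.05 by edgeR). The F test over the 6 groups called 10 of 10 members, against 78.4% of all genes.

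A wider set of 75 chaperone genes, listed by function, gives the surroundings of these 10; 74 had enough counts to be tested. At 10 min and 1 h 0 of the 74 were called by edgeR and 0 by DESeq2. By edgeR 1 had an unadjusted p under 0.05 at each time, against 1144 and 899 of all 16311 genes. At 6 h 15 were called higher and 3 lower, at 24 h 21 higher and 16 lower, and at 72 h 8 higher and 39 lower. Of all genes, 16.3% were called higher and 12.2% lower at 6 h, 23.7% and 20.2% at 24 h, and 34.2% and 32.2% at 72 h. These splits rest on the scaling: by library total they were 6 higher and 7 lower at 6 h, 32 and 6 at 24 h, and 35 and 19 at 72 h. Under library totals, the 72 h background was 58.1% of all genes called higher and 14.6% called lower. The matching share called higher was 34.1% for the 24 h comparison and 11.7% for the 6 h one. Of all genes called under library totals, 40.6% were higher at 6 h and 75.5% at 24 h. The share of all genes called lower under library totals is not given for 6 and 24 h. The other library-total shares are also the background for the library-total counts of single lists below. With TMM, the 6 h count was 10 without replicate 1 at 6 h, in place of 18, and no share of all genes is given for that fit. The largest rise in the set was that of Fkbp5, an HSP90 co-chaperone and a known glucocorticoid target, with 22.4 ± 4.04 CPM in sham, 214 ± 30.9 at 6 h (log2 3.26, SE 0.49, edgeR adjusted p = 0.000388), and 72.8 ± 32.6 at 24 h (1.70, SE 0.47, edgeR adjusted p = 0.0102, and 0.0563 without replicate 3 at 24 h).

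Among the 9 further HSP70 family genes, 1 was called higher and 1 lower at 6 h, 3 and 3 at 24 h, and 1 and 4 at 72 h. With scaling by library total these were 0 and 1, 4 and 1, and 3 and 3. Hspa12a, a distant relative of HSP70, was lower at 6 h (-1.22) and 24 h (-1.30), and Hspa9, the mitochondrial HSP70, was lower at 72 h, at 277 against 719 CPM in sham (-1.38, SE 0.11, edgeR adjusted p = 3.24e-09). Its mitochondrial partners Dnaja3 (-1.42) and Grpel1 (-0.95) and the mitochondrial chaperonin Hspd1 (-1.11) were called lower at 72 h as well, and all 4 were also called lower with scaling by library total. Of 16 J-domain genes, 3 were called higher at 6 h, led by Dnajb4 (98.0, 107 and 101 CPM in sham, 251, 185 and 174 at 6 h, log2 0.99), and 9 were called lower and 2 higher at 72 h (5 lower and 9 higher with scaling by library total). Dnajb11 (0.68 at 24 h) and Hyou1 (1.25 at 24 h), both chaperones of the endoplasmic reticulum, were called higher at 24 h. Of 10 exchange factors and BAG proteins, 1, Bag2, was called higher at 6 h (0.49, lost without replicate 1 at 6 h with an edgeR adjusted p of 0.0623), and 6 were called lower and 1 higher at 72 h (1 lower and 4 higher with scaling by library total).

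Of 16 HSP90 family and co-chaperone genes, 2 were called higher and 1 lower at 6 h, 4 and 4 at 24 h, and 0 and 8 at 72 h (2 and 3, 6 and 2, and 9 and 3 with scaling by library total). Fkbp4, a co-chaperone of steroid receptors, was lower at 72 h under both scalings (-1.75 with TMM, SE 0.15, edgeR adjusted p = 1.72e-08, and -1.16 with library totals). Of 10 chaperonin genes, 6 were called higher at 6 h and 7 at 24 h, all of them subunits of the cytosolic TRiC ring, which folds actin and tubulin, with Cct6a at 0.38 and 0.76. The 6 h call of Cct6a was lost without sham replicate 1 (edgeR adjusted p = 0.0698) or 6 h replicate 1 (0.0881). In the same list 1 gene was called lower at 24 h, and 3 were called higher and 2 lower at 72 h. With scaling by library total 0 chaperonins were called at 6 h, 8 were called higher at 24 h, and 8 were higher and 1 lower at 72 h. Of the 4 further small heat shock genes tested, 1 (Hspb3) was called lower at 6 h, 1 was higher and 2 lower at 24 h, and 4 of 4 were called lower at 72 h under both scalings (median -1.31 with TMM, -0.72 with library totals), led by Hspb6 (745 ± 10.4 CPM in sham, 270 ± 53.5 at 72 h, -1.46). At 6 h 0 of the 4 were called higher, and 0 were higher at an unadjusted p under 0.05 by edgeR; Hspb6 was at 0.26, Hspb2 at -0.01 and Hspb8 at -0.17. The heat shock factors and their regulator were called at 72 h alone, 3 of 4 lower with TMM, but with scaling by library total 0 were called lower and 1 higher. Hsf1 was at -0.55 with TMM and 0.04 with library totals. HSF1 is activated at the protein level, which these data do not measure. Of 5 partners of Bag3 in chaperone-assisted autophagy, filamin C (Flnc) measured 323, 280 and 309 CPM in sham, 2668, 781 and 1543 at 6 h and 1062, 1117 and 1370 at 24 h (2.45 and 1.96), and Synpo2 was lower at 72 h (-1.01).

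The genes whose course was most like that of 3 members were taken from 11711 candidates by Pearson's r of log2 CPM over the 18 libraries. For Hspa1a these were Maff (0.97), Tiparp (0.97), Ifrd1 (0.96), Uap1 (0.95) and Pde4b (0.94), and Maff, a small Maf transcription factor, averaged 13.8 CPM in sham, 104 at 6 h and 18.7 at 72 h. For Hspb1 they were Flnc (0.98), Shb (0.97), Rrp12 (0.97), Cltb (0.97) and Ppme1 (0.97). Hspb1 and Flnc also shared the order of the 3 mice at 6 h, with replicate 1 highest and replicate 2 lowest. That order was not particular to them: Hspa8, Hsp90aa1, Dnajb1, Bag3 and Cryab had it too, and Hspa1a, Hspa1b, Hsph1 and Hspb7 did not. For Hspb7 the most alike genes were Cav3 (0.98), Flot1 (0.97), Cystm1 (0.96), Nrap (0.96) and Cfl2 (0.96), and Cav3, the muscle caveolin, averaged 72.2 CPM in sham, 113 at 24 h and 39.0 at 72 h. These 18 libraries share group means and scaling, and the lists are descriptions with no p.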

How the data were processed

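Poly(A)-selected RNA of 18 mouse hearts was sequenced, 1 library per mouse, with 18.2 to 25.1 M counts each. The authors deposited read counts per Ensembl gene and FPKM values. Per the submitters' processing notes, cutadapt 1.18, HISAT2 2.1.0 and featureCounts were used with mm10; the strand setting and the treatment of reads that match several genes are not given in the sources used here. FPKM columns of replicates 2 and 3 at 6 h held each other's counts, so levels per length were recomputed from the counts and the gene lengths that the deposited FPKM imply. Reads carried no molecular identifiers that the labels describe, so some may be PCR copies.

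The counts were fitted in R 4.3.3 with edgeR 4.0.16 (filterByExpr, TMM, robust glmQLFit, 1 mean per group over all 18 libraries, two-sided glmQLFTest, Benjamini-Hochberg over 16311 genes). SE is the log2 fold change divided by the square root of F. Alternatives used DESeq2 1.42.0 and limma 3.58.1 on log2(FPKM + 1) or log2(FPKM + 0.1). Replicates are separate mice per the labels. Coordinates and lengths follow GENCODE M21, and promoters RefSeq GRCm38.p6.

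The 10 members, the wider and marker lists and the tests were chosen with earlier results of these data known. From each wider list, the called gene with the largest change at 6, 24 and 72 h and at least 50 counts on average was named; Hspb2 and Hspb8 were named after their values were seen. Likeness was ranked by Pearson's r of log2 CPM (prior count 2), leaving out members, predicted genes and genes under 50 counts on average. Of the marker lists, endothelial markers were called lower for 3 of 5 genes at 24 h and 4 of 5 at 72 h, smooth muscle and pericyte markers for 2 of 5 at both times, red blood cell markers for 5 of 5 at 72 h and skeletal muscle markers for 1 of 4 at 24 h and 2 of 4 at 72 h.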

Additional observations from a re-analysis of the deposited data

Results flagged for a closer look

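The search covered the 10 members and the wider genes named for the largest change in their list. In 4 of these genes, calls against sham went in opposite directions at different times, and the difference between those times passed the edgeR test. A test of this kind would count any gene with a rise and a later fall. The other wider genes and all other genes were not searched, so the count of 4 has no background share. The members were Hspb7, with a log2 fold change of -1.69 from 6 to 72 h (SE 0.13, edgeR adjusted p = 3.16e-09) and -1.75 from 24 to 72 h (SE 0.13, edgeR adjusted p = 5.55e-09), and Cryab, with -1.65 (SE 0.14, edgeR adjusted p = 1.24e-08) and -1.90 (SE 0.14, edgeR adjusted p = 6.8e-09). From the wider lists, the J-domain gene Dnajb4 gave -1.38 from 6 to 72 h (SE 0.12, edgeR adjusted p = 1.07e-08) and -0.69 from 24 to 72 h (SE 0.12, edgeR adjusted p = 7.04e-05). Bag2, an inhibitor of the ubiquitin ligase CHIP, gave -1.26 from 6 to 72 h (SE 0.13, edgeR adjusted p = 8.56e-08). Cardiomyocyte markers fell over the same interval, and their part was not tested.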

How the results depend on the processing

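The alternatives for summed Hspa1a and Hspa1b and for the named genes of the wider lists, and DESeq2 on the wider lists, were chosen after seeing the data. A fit of only the 6 libraries compared called 1 member at 10 min, 2 at 1 h, 5 from 1 to 6 h and 0 from 6 to 24 h. It also called 7 higher at 24 h, and 3 higher and 4 lower at 72 h, against sham. From 24 to 72 h it called 7 lower. No share of all genes is given for these later counts. In that fit summed Hspa1a and Hspa1b passed against sham at 72 h (0.91, edgeR adjusted p = 0.000147) and not from 6 to 24 h (-3.47, 0.0626). Their fall from 24 to 72 h did not pass with scaling by library total (-1.28) or with no filter (-1.67). Leaving out each library in turn gave 0 members called at 10 min and 0 to 1 at 1 h (1, Dnajb1, without replicate 1 at 6 h), 7 to 9 at 6 h, 4 to 7 at 24 h and 4 to 6 at 72 h, and 10 to 23 wider genes at 6 h; the summed change ranged from -0.12 to 0.72 at 10 min and from -2.05 to -1.05 between 24 and 72 h. These fits assume that a group left with 2 mice varies like the rest. Shares of all genes called are not given for them, so these ranges of counts stand without a background.

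Signs turned for 15 uncalled comparisons of single genes, 1 called one and summed Hspa1a and Hspa1b at 10 min, and the cause was not tested. With scaling by library total, limma with a pseudocount of 1 and limma with 0.1, in that order, the log2 fold changes were 0.14, 0.12 and 0.14 for Hsph1 at 24 h, 0.036, 0.036 and 0.037 for Bag3 at 24 h, 0.20, 0.18 and 0.21 for Hsph1 at 72 h, 0.37, 0.36 and 0.36 for Hspa8 at 72 h, 0.43, 0.43 and 0.43 for Hspb1 at 72 h, and 0.036, 0.043 and 0.046 for Hsf1 at 72 h, the called one. Leaving out 1 library gave ranges at 10 min of -0.22 to 0.58 for Hspa1a, -0.028 to 0.87 for Hspa1b, -0.036 to 0.27 for Hspa8, -0.030 to 0.22 for Hsp90aa1, -0.075 to 0.037 for Bag3, -0.17 to 0.13 for Hspb1 and -0.14 to 0.016 for Cryab, and at 1 h of -0.12 to 0.14 for Hsph1, -0.0068 to 0.15 for Hspa8 and -0.15 to 0.23 for Hsp90aa1.

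Replicate numbers gave no clear pairing of the mice: same-numbered deviations had median correlations of 0.01 to 0.05, and 9 of 18 libraries correlated best with their own number. These values cannot exclude a batch shared by number. With the replicate block, Bag3 was called as well at 6 h (0.31, edgeR adjusted p = 0.0424), and no other member's call against sham changed. At sham levels of 2.63 to 5.37 CPM, Hspa1a and Hspa1b rest on few counts, which limits their folds.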
